A study of Homo sapiens with 4 samples.

Results

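COX2, STAT3, NF-κB and the innate immune proteins around them were measured by Reverse Phase Protein Array (RPPA) in LN229 cells, an established human glioblastoma line, with and without salmon calcitonin (sCT), a peptide ligand of the calcitonin receptor. Antibodies were chosen by protein name, as every total-protein or phosphosite row for Cox2, Stat3, Jak2, NF-kB-p65, STING, cGAS, IRF-1, IRF-3, IL-6 and PD-L1, and 9 of the 440 antibodies analysed here matched, of which 2 recognise a phosphorylated site. Rows for cGAS, IRF-3 and total NF-kB-p65 were not analysed here. One group held 2 untreated samples, labelled 0 min, and the other held 2 samples that had received sCT (300 nM) for 60 min. Both groups were the same line, and the design calls the samples of a group biological duplicates without naming separate cultures or days. The p-values therefore set each group difference against the spread between these samples, which the main test estimates in part from all antibodies. No untreated sample of 60 min was analysed here, so sCT and the 60 min interval cannot be told apart. A level is the relative value that the authors deposited for one antibody in one sample. Its scale is not given in the sources used here and was taken as linear, since all values were above 0 and each sample had a median close to 1, and every fold change rests on this reading. It compares samples for that antibody and does not compare antibodies with each other.

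COX2 (gene PTGS2) is the inducible cyclooxygenase, the enzyme that starts the conversion of arachidonic acid to prostaglandins, and its gene is known as an early response gene to growth factors, cytokines and cAMP. IL-6 is a cytokine whose receptor activates JAK kinases, which phosphorylate STAT3 at Y705 so that it dimerises and enters the nucleus. NF-κB p65, phosphorylated at S536 by IκB kinases among others, drives many inflammatory genes, COX2 and IL-6 included. STING is the adaptor through which cytosolic DNA triggers interferon production, IRF-1 is a transcription factor of the interferon response, and PD-L1 is the checkpoint ligand that interferon induces. In glioblastoma, STAT3 and NF-κB are known for their activity in the mesenchymal tumor state.

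After sCT, COX2 rose 3.22-fold and Jak2 fell to 0.855 of its untreated level, while none of the 7 other antibodies passed an adjusted p of 0.05 in limma. This linear model borrows information on replicate error from the whole panel, and its p-values were adjusted by the Benjamini-Hochberg method for all 440 tests. Thus 2 of the 9 were called, 1 higher and 1 lower, where 55% of the whole panel was called, 21.4% higher and 33.6% lower. When each sample was centred on 4 loading control antibodies instead, the panel gave 41 higher and 176 lower in place of 94 and 148. The second call rule, an unadjusted p of 0.05 with a log2 fold change of at least 0.58 in either direction, took COX2 alone of the 9 (1 higher, 0 lower), where it took 21.6% of the panel, 2.5% higher and 19.1% lower. The median log2 fold change was 0.066 over the 9 antibodies and 0.016 over the panel, but the size of the change differed. The median absolute log2 fold change was 0.075 over the 8 antibodies other than COX2 and 0.22 over the panel, and 7 of the 9 lay below the latter value. These shares describe the list and were not tested against the panel.

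COX2 had levels of 1.04 and 0.836 in the untreated samples and of 3.22 and 2.80 in the sCT-treated samples. Both sCT-treated samples lay far above both untreated samples, and the ratios of a treated to an untreated sample ran from 2.70 to 3.85. The mean went from 0.937 ± 0.143 (SD, n = 2) to 3.01 ± 0.298 (SD, n = 2), a log2 fold change of 1.69 (SE 0.13, 95% CI 1.35 to 2.03, adjusted p = 0.000637 in limma). COX2 was named for this account because it was already known as the largest rise in these data, so its place at the top of the 440 antibodies is a description and its p is not independent evidence. The antibody with the next largest log2 fold change, LDHA at 1.47 (adjusted p = 0.325), had untreated levels of 2.75 and 0.426 and treated levels of 6.70 and 1.33, which overlapped between groups. COX2 was also among the less repeatable antibodies, ranked 31 of 440 for the spread between replicates on the log2 scale. The untreated samples alone differed by 0.31 log2 units, a small part of the change. With 2 samples against 2, an exact permutation test on COX2 alone cannot give a two-sided p below 0.333, which is the p it gave. The unequal-variance test on linear levels gave COX2 an unadjusted p of 0.0315 and did not call it after adjustment (adjusted p = 0.123).

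**Figure D1:**
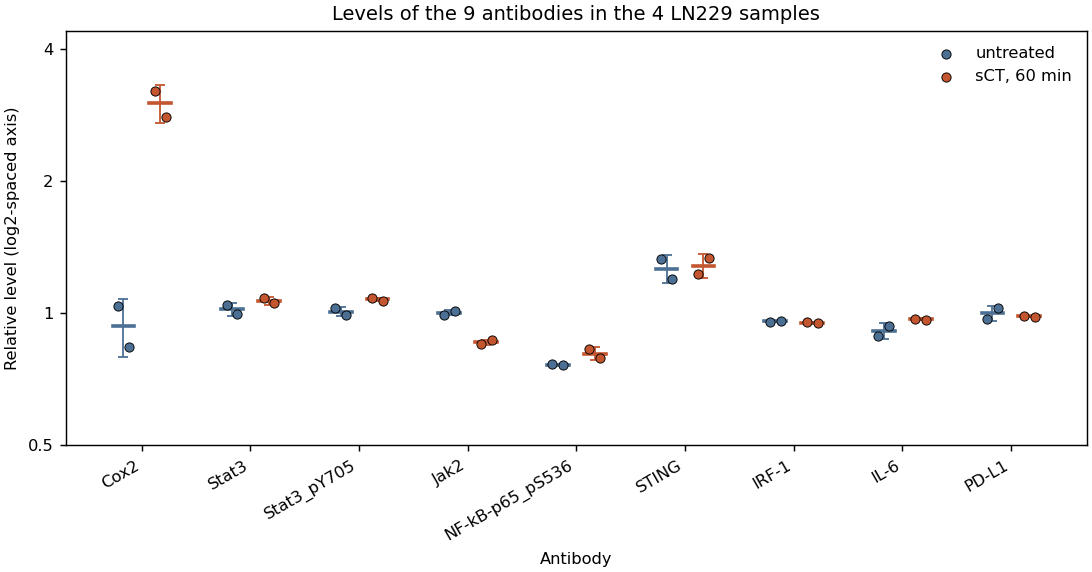
Relative levels of the 9 antibodies (log2-spaced vertical axis) in 2 untreated and 2 sCT-treated LN229 samples; points are samples, horizontal bars are group means and error bars are SD (n = 2). COX2 moved from a mean of 0.937 to 3.01, while for the other 8 the ratio of the treated to the untreated mean lay between 0.855 and 1.07.

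The promoters of the COX2, IL-6 and IRF-1 genes are shown because these genes are known targets of the factors whose phosphorylation the panel reads. Their proteins gave different readouts here. These readouts were known when the genes were picked, and the promoters of the other member genes are not shown. The 250 bases before the gene start are from RefSeq (GRCh38.p14), which had promoter entries for 7 of the 8 genes behind the 9 antibodies. They lie at chr1:186680424-186680673 (minus strand) for PTGS2, chr7:22726950-22727199 (plus strand) for IL6 and chr5:132490774-132491023 (minus strand) for IRF1. Each is written 5′ to 3′ on the gene's strand, and capitals mark motif matches on either strand. The motifs were CGTCA (core of the cAMP response element), GGGRNNNYCC (NF-κB consensus), TTNNGNAA (C/EBP), TTCNNNGAA (the STAT-binding GAS element) and TGANTCA (AP-1). N stands for any base, R for A or G and Y for C or T.
PTGS2: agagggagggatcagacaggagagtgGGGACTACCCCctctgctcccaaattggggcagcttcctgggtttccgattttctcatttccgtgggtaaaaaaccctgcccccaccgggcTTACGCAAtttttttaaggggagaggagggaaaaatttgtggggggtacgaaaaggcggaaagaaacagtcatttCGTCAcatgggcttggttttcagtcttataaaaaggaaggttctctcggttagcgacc
IL6: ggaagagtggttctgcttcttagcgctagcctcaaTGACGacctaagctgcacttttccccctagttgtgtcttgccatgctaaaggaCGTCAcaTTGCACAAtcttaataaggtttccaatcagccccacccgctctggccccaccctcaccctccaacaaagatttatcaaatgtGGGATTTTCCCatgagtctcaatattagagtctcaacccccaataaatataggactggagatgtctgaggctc
IRF1: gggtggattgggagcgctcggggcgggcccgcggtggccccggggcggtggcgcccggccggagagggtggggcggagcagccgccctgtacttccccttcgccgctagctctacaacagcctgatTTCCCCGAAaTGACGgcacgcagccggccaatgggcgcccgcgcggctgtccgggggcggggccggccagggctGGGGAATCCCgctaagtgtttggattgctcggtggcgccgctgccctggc
In the PTGS2 promoter the NF-κB consensus matched from base -224 to -214 before the start, in overlapping matches on both strands, C/EBP from -133 to -126 on both strands, and the cAMP element core from -58 to -54. The IL6 promoter held the same 3 motifs, with the NF-κB consensus from -73 to -63, C/EBP from -155 to -148 and the cAMP element core at 2 places, -215 to -211 and -162 to -158. The IRF1 promoter held the NF-κB consensus from -50 to -41, the GAS element from -124 to -116 and the cAMP element core from -114 to -110. No match to AP-1 was found in any of the 3 windows, and matches to different motifs did not overlap. Among 35116 promoter windows of this length, 21.2% held the cAMP element core, 18.5% the NF-κB consensus, 33.2% C/EBP, 6.57% GAS and 6.57% AP-1. The share of windows holding several of these motifs together was not counted. A match is a description of the letters and not evidence of binding in these cells.

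IL-6, which shares those 3 motifs with COX2, had levels of 0.885 and 0.937 in untreated cells and of 0.973 and 0.966 after sCT. The lower treated sample lay above the higher untreated one by less than the untreated samples differed from each other. The log2 fold change was 0.090 (95% CI -0.043 to 0.22, adjusted p = 0.181 in limma), so the interval reaches no further than a 1.17-fold higher level. The antibody reads IL-6 in a cell lysate, and secreted cytokine was not measured.

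The JAK and STAT3 antibodies gave one small fall and no call on STAT3. Jak2, the kinase that couples cytokine receptors to STAT proteins, had levels of 0.993 and 1.01 in untreated cells and of 0.849 and 0.867 after sCT, with no overlap and little spread within either group. Its log2 fold change was -0.23 (SE 0.044, 95% CI -0.34 to -0.11, adjusted p = 0.0117 in limma), a level of 0.855 relative to untreated cells. A fall of this size was ordinary on this panel, since 51.1% of all antibodies had a smaller absolute log2 fold change. With any one replicate left out the log2 fold change stayed between -0.24 and -0.21. The adjusted p in limma rose above 0.05 when untreated replicate 2 (0.0541), sCT replicate 1 (0.0786) or sCT replicate 2 (0.0583) was left out, in fits where the calls over the panel also went from 242 to 187, 148 and 158.

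Total Stat3 had levels of 1.05 and 0.996 in untreated cells and of 1.08 and 1.05 after sCT. Stat3 phosphorylated at Y705, the activating site, had levels of 1.03 and 0.991 in untreated cells and of 1.08 and 1.07 after sCT. For both antibodies the treated samples lay above the untreated ones by a few percent. The log2 fold changes were 0.066 (95% CI -0.065 to 0.20, adjusted p = 0.294 in limma) for the total and 0.092 (95% CI -0.029 to 0.21, adjusted p = 0.144 in limma) for the site. Relative to total Stat3 in the same sample, the site differed between groups by 0.026 log2 units, from -0.017 ± 0.013 to 0.0091 ± 0.016 (SD, n = 2). An exact permutation test of that ratio gave a two-sided p of 0.333, the smallest it can give. Upward changes of STAT3 phosphorylation above 1.16-fold lie outside the 95% interval of the site.

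NF-κB p65 was represented by its S536 site only, so a change of phosphorylation and a change of p65 amount cannot be told apart. Its levels were 0.765 and 0.761 in untreated cells and 0.829 and 0.790 after sCT, higher in both treated samples. The log2 fold change was 0.084 (95% CI -0.042 to 0.21, adjusted p = 0.186 in limma). Of the 9 antibodies, this was the most sensitive to scaling. Quantile normalization, which gives every sample the same set of values in rank order, moved it to 0.70 (adjusted p = 0.0146 in limma). By level it ranked 15 and 28 from the bottom of the 440 antibodies in the untreated samples and 113 and 96 in the treated samples, although the levels themselves moved little. Relative loading control centring gave -0.047 (adjusted p = 0.522).

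STING, IRF-1 and PD-L1 had the smallest absolute log2 fold changes of the 9, and none was called. STING had levels of 1.33 and 1.20 in untreated cells and of 1.23 and 1.34 after sCT, which overlapped, with a log2 fold change of 0.024 (95% CI -0.18 to 0.23, adjusted p = 0.800 in limma). PD-L1 had levels of 0.971 and 1.03 in untreated cells and of 0.987 and 0.982 after sCT, with both treated samples between the untreated ones and a log2 fold change of -0.022 (95% CI -0.15 to 0.11, adjusted p = 0.724 in limma). IRF-1 had levels of 0.957 and 0.959 in untreated cells and of 0.953 and 0.950 after sCT. It had the smallest spread between replicates of all 440 antibodies, and its groups did not overlap, yet they differed by only -0.0098 log2 units (95% CI -0.12 to 0.10, adjusted p = 0.848 in limma). The groups did not overlap for 7 of the 9 antibodies, 5 higher and 2 lower, and for 85.9% of the panel, 43% higher and 43% lower.

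Over the 7 uncalled antibodies, the 95% intervals ran from 0.883-fold to 1.17-fold of the untreated level, and both of these limits belong to STING. Signal over background is not known for these levels, so an antibody near background could also show a flat level, and absence of the protein was not examined.

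**Figure D2:**
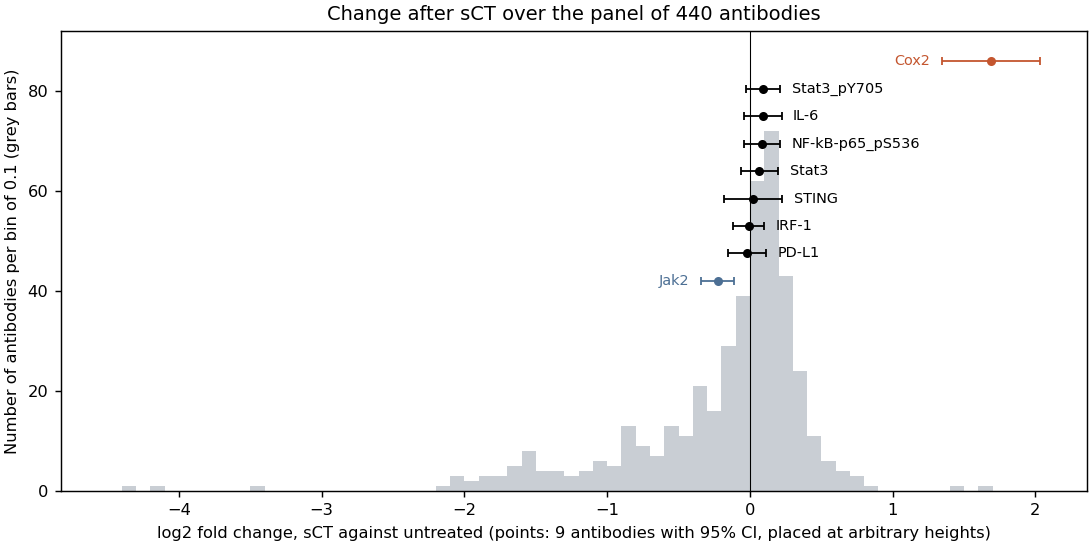
Histogram of log2 fold changes of all 440 antibodies after sCT (grey, bins of 0.1), with the 9 antibodies as points with 95% CI at arbitrary heights, coloured where the adjusted p was under 0.05 (orange higher, blue lower). COX2 at 1.69 lies at the right end of the panel, Jak2 at -0.23 left of 0, and the other 7 intervals cross 0.

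The wider inflammatory and immune context was taken from a list of proteins known for cytokine, NF-κB, innate sensing, checkpoint and prostaglandin signaling, which 22 antibodies of the panel matched. Of these 22, 4 rose and 6 fell at an adjusted p of 0.05 in limma (45.5%, against 55% of the panel), with a median log2 fold change of 0.053. The split depended on the scaling, with 5 higher and 4 lower under quantile normalization and 2 higher and 7 lower with relative loading control centring. Among the called antibodies, the largest rises were B7-H3, MIF and Annexin-I, and the largest falls were RIP, c-Jun phosphorylated at S73 and SHP2.

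The 5 antibodies of the NF-κB group included 3 that fell and 0 that rose. This is a share of falls of 60%, where 33.6% of the panel fell and 55% was called in either direction. The difference between these shares was not tested. RIP (RIPK1), the kinase that links the tumor necrosis factor receptor to NF-κB and to cell death, had levels of 0.964 and 1.01 in untreated cells and of 0.320 and 0.357 after sCT. Both treated samples lay far below the untreated ones. The log2 fold change of RIP was -1.55 (adjusted p = 0.000169 in limma), which leaves 0.343 of the untreated level. XIAP and c-IAP2, ubiquitin ligases that restrain caspases or act in the same receptor complex, gave log2 fold changes of -0.65 (adjusted p = 0.00197) and -0.20 (adjusted p = 0.0397). The call of c-IAP2 was lost with any replicate left out and under quantile normalization (adjusted p = 0.143). RIP3 and MLKL, which carry out necroptosis, gave 0.14 (adjusted p = 0.0590) and -0.10 (adjusted p = 0.198).

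In the JAK-STAT and cytokine group, 2 of 6 fell and 0 rose, a share of falls (33.3%) like that of the panel (33.6%). SHP2, the tyrosine phosphatase encoded by PTPN11 that acts downstream of cytokine and growth factor receptors, had levels of 1.47 and 1.51 in untreated cells and of 0.686 and 0.704 after sCT. Its log2 fold change was -1.10 (adjusted p = 0.000146 in limma). The antibody to SHP2 phosphorylated at Y542, on the same list but named after its value was seen, gave -0.052 (adjusted p = 0.340 in limma). Stat5a, a STAT protein related to STAT3 and also named after its value was seen, fell from 1.11 and 1.18 to 0.651 and 0.699, a log2 fold change of -0.76 (adjusted p = 0.000702 in limma). The difference between Stat3 and Stat5a was not tested. Lck, Syk and ZAP-70, kinases of lymphocyte receptors, were not called, although Lck had a log2 fold change of 0.38 (adjusted p = 0.132 in limma), above those of MIF and Annexin-I.

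Factors that bind the COX2 promoter were represented on the list by c-Jun phosphorylated at S73, a subunit of AP-1. The AP-1 motif searched here, TGANTCA, had no match in the PTGS2 window, and binding of c-Jun to other letters was not examined. Levels of phosphorylated c-Jun were 0.636 and 0.954 in untreated cells and 0.317 and 0.335 after sCT. They were lower in both treated samples, although the untreated samples differed widely. The log2 fold change was -1.26 (adjusted p = 0.00640 in limma). The call was lost without sCT replicate 1 (adjusted p = 0.0578) and under quantile normalization (-0.26, adjusted p = 0.701). CREB, the factor that binds the cAMP response element whose core is marked in the PTGS2 promoter, was not on the list and was added after its values were seen. Its total had levels of 0.962 and 0.925 in untreated cells and of 1.21 and 1.11 after sCT, a log2 fold change of 0.30 (adjusted p = 0.0125 in limma) that lost its call with relative loading control centring (0.17, adjusted p = 0.0656) and without untreated replicate 2 or sCT replicate 1. CREB phosphorylated at S133, the site through which protein kinase A activates it, had levels of 1.14 and 1.24 in untreated cells and of 0.273 and 0.306 after sCT. Both treated samples lay far below the untreated ones, and the site gave -2.04 on the log2 scale (adjusted p = 0.000141 in limma).

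Annexin-I, a calcium-binding protein that restrains phospholipase A and thereby the release of arachidonic acid, the substrate of COX2, rose from 0.596 and 0.575 to 0.686 and 0.709, by 0.25 log2 units (adjusted p = 0.0107 in limma). It had the lowest level of the 440 antibodies in untreated replicate 1, at 0.596. The size of its rise depended on the scaling, at 2.01 under quantile normalization and 0.12 (adjusted p = 0.150) with relative loading control centring. Leaving out untreated replicate 2 or one of the sCT replicates also ended its call (adjusted p from 0.0532 to 0.0718).

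Among the 7 antibodies to checkpoint and antigen presentation proteins, 2 rose and 0 fell, so that 28.6% were called, against 55% of the panel (21.4% higher). B7-H3, an immune checkpoint protein of the same family as PD-L1, had levels of 0.900 and 0.900 in untreated cells and of 1.38 and 1.41 after sCT, a log2 fold change of 0.64 (95% CI 0.52 to 0.75, adjusted p = 0.000484 in limma). Its interval does not overlap that of PD-L1, although the difference between the antibodies was not tested. MIF, a cytokine of the innate group, rose from 0.926 and 0.930 to 1.20 and 1.16, by 0.35 log2 units (adjusted p = 0.00332 in limma), and it lost its call under none of the alternatives that used limma. PD-1 rose by 0.21 (adjusted p = 0.0199), a call lost with relative loading control centring (adjusted p = 0.274) and on leaving out untreated replicate 2 or one of the sCT replicates.

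**Figure D3:**
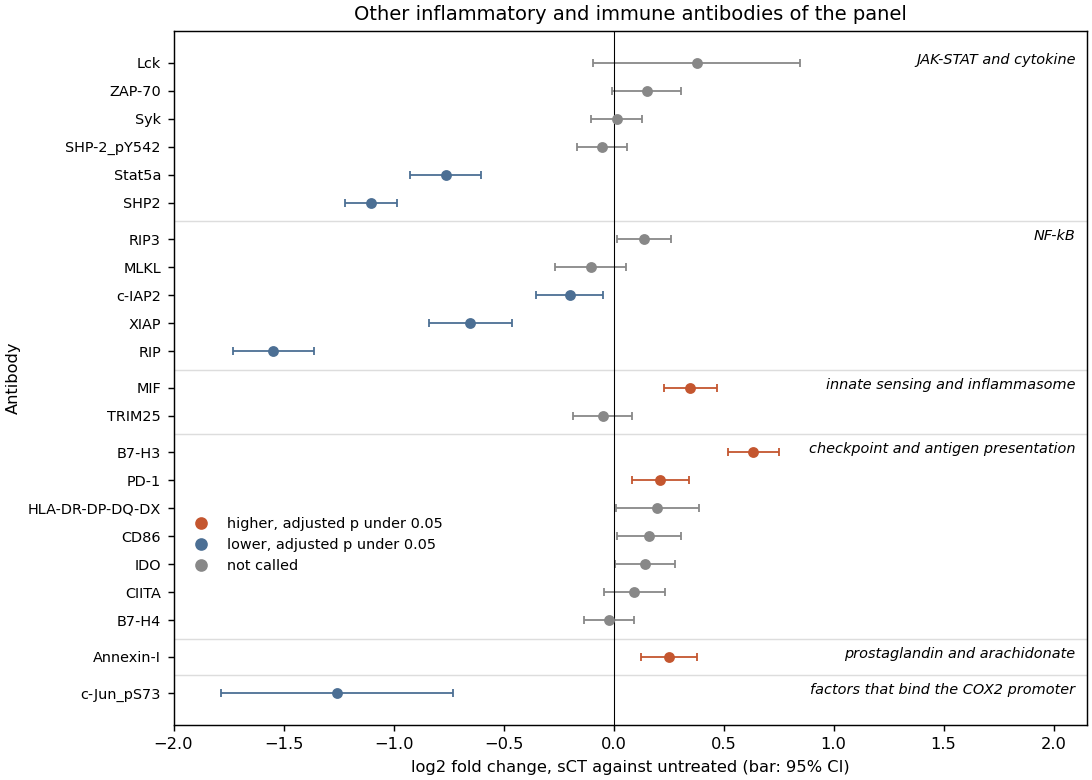
log2 fold change after sCT (points) with 95% CI (bars) of the 22 antibodies of the wider list, grouped by role and coloured where the adjusted p was under 0.05 (orange higher, blue lower, grey not called). The falls lie in the JAK-STAT and cytokine group, the NF-κB group and at c-Jun phosphorylated at S73, and B7-H3 at 0.64 is the largest rise.

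Antibodies to immune cell markers, chosen on the assumption that a glioma line lacks them, mostly gave larger log2 fold changes than the 8 antibodies other than COX2. Whether LN229 cells express these proteins was not examined. Of 10 antibodies to immune cell markers, 3 rose (CD68, PD-1 and Granzyme-B) and 0 fell, where 21.4% of the panel rose. CD68 had the largest log2 fold change of the 10, at 0.41 (adjusted p = 0.00174 in limma), while CD4 and CD45 were not called. In both treated samples 9 of the 10 lay higher, where 43% of the panel lay higher without overlap. PD-1, HLA-DR, Lck, Syk and ZAP-70 stand on this list and on the wider list alike. The 10 markers had a median log2 fold change of 0.20. Their median level went from 0.989 and 0.985 in the untreated samples to 1.14 and 1.14 in the treated samples. For 8 of the 10 the log2 fold change exceeded 0.092, the value of the highest of the 9 antibodies after COX2. Of the 4 loading control antibodies, GAPDH rose by 0.57 log2 units and b-Actin by 0.17 (adjusted p = 0.00578 and 0.0386 in limma). Porin at 0.082 (adjusted p = 0.256) and Vinculin at 0.039 (adjusted p = 0.557), whose groups overlapped, were not called. The part that these differences have in the small differences of Stat3, NF-κB p65 and IL-6 was not tested. COX2 was higher by 1.56 log2 units (adjusted p = 0.000343 in limma) with the samples centred on those loading controls. Of markers for glioma cells, SOX2, Vimentin and EGFR were on the panel, and since levels do not compare antibodies with each other, the identity of the line could not be checked from them.

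The profiles nearest to that of COX2, by the Euclidean distance of log2 levels centred over the 4 samples, were ERK phosphorylated at T202/Y204 (0.97 log2 units away), ASNS (0.99), NQO1 (1.02), GCLC (1.02) and MCT4 (1.04). This measure has 4 points for each antibody and was given no test. In the order given, these antibodies ranked 3, 6, 5, 7 and 4 from the highest log2 fold change on the panel. They were thus the largest rises after COX2 and LDHA. ERK, whose antibody is listed as MAPK_pT202_Y204, had levels of 2.96 and 3.85 in untreated cells and of 6.88 and 5.42 after sCT, a log2 fold change of 0.86. GCLC, the catalytic subunit of glutathione synthesis's rate-limiting enzyme, had levels of 0.846 and 0.697 in untreated cells and of 1.30 and 1.14 after sCT, a log2 fold change of 0.67.

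**Figure D4:**
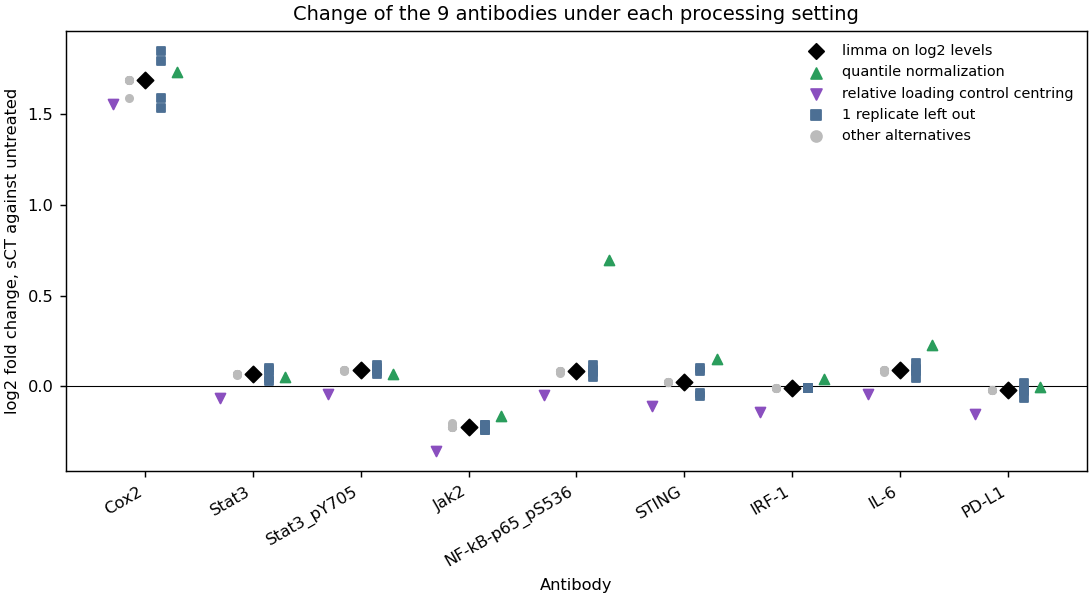
log2 fold change of the 9 antibodies under the reported fit (black diamonds) and under each alternative; grey points are the alternatives in scale, test and filter and the replicate block. COX2 stayed between 1.53 and 1.85, Jak2 stayed below 0, and NF-kB-p65_pS536 moved to 0.70 under quantile normalization alone.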

How the data were processed

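Per the study's methods, dilution series of LN229 lysates were spotted on nitrocellulose slides, each slide was incubated with a primary antibody and developed with DAB, and spot intensities were read with Array-Pro Analyzer. The authors deposited one relative level per antibody and sample, taken here as a linear ratio from the values (all above 0, median 1.00 in each sample); the scale and the steps from spot intensities to these levels are not given in the sources used here. Every sample had 440 antibodies, all levels were above 0, and none was left out.

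The log2 of each level, with no pseudocount, was tested between groups in limma 3.58.1 under R 4.3.3 (lmFit, then eBayes, without covariates, two-sided, Benjamini-Hochberg over 440 antibodies, 2 residual and 2.59 prior degrees of freedom). The steps were tested on simulated data. The number of samples limits the precision. Members, lists and tests were chosen with earlier results of these data known. All 9 member rows were named, with the 3 largest called rises and falls of the wider list and the 5 profiles nearest to COX2; other antibodies were named after their values were seen. Wider antibodies were matched on the protein name, without case, hyphens and spaces. Alternatives were linear levels, a pseudocount of 0.1, median centring, quantile normalization, relative loading control centring (each sample centred on the median of b-Actin, GAPDH, Porin and Vinculin, each relative to its mean), eBayes with trend and robust estimation, the unequal-variance test on linear levels, a filter on the 10% of antibodies lowest in level, leaving out each replicate, and the replicate number as a block. Motifs were searched in RefSeq promoters.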

Additional observations from a re-analysis of the deposited data

How the results depend on the processing

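Of the 9 antibodies, 2 were called in limma, and 0 after adjustment of the unequal-variance test (linear levels), where 2 passed an unadjusted p of 0.05 and the panel had 1 call, with 155 at an unadjusted p of 0.05. That test also called 0 of the 22 wider antibodies, with 7 at an unadjusted p of 0.05, in place of 10 in limma, and gave COX2 1.68 (adjusted p = 0.123). With a replicate left out, the calls were between 1 and 2 of the 9, where Jak2 was lost without untreated replicate 2 or one of the sCT replicates, and between 6 and 12 of the 22, the lowest without sCT replicate 1. COX2 was between 1.53 and 1.85 (adjusted p from 0.00451 to 0.0106). The second call rule took 2 antibodies in place of 1 under quantile normalization, where NF-κB p65 joined COX2, and 1 with any replicate left out. No other alternative moved these counts by over 1.5 times. Relative loading control centring shifted the panel's median log2 fold change by -0.13 and turned the sign of uncalled antibodies, with Stat3 at -0.065, its Y705 site at -0.040, NF-κB p65 at -0.047, STING at -0.11 and IL-6 at -0.042. Quantile normalization turned IRF-1 to 0.038. With a replicate left out, STING was between -0.051 and 0.099 and PD-L1 between -0.064 and 0.020. The site of Stat3 relative to the total stayed between 0.014 and 0.037 over 6 alternatives. The cause of these shifts was not tested. By construction, quantile normalization gives every sample the same set of values in rank order. Leaving out a sample leaves fewer degrees of freedom for the p-values.

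Replicate numbers are shared by the groups in the labels without a stated link. Across antibodies, deviations of same-numbered samples correlated with r = 0.586. LDHA weighs heavily in this value, since its replicates differed by 2.69 log2 units untreated and 2.33 after sCT, replicate 1 being higher in both. The median absolute differences over the panel were 0.064 and 0.058. The correlation without LDHA was not computed, so a link of replicates over the whole panel is not shown. With the replicate block limma called 2 of the 9 and 11 of the 22, and COX2 stayed at 1.69 (adjusted p = 0.00245).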
